A study of Mus musculus with 5 samples.

Results

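Reelin is a large secreted protein that guides the layering of cortical neurons, and the 10 genes described here encode its receptors and the machinery inside the migrating neuron. They were chosen by symbol from the 34590 gene symbols of the count files: the receptors Vldlr and Lrp8, the adaptor Dab1, the kinase Fyn, the adaptors Crk and Crkl, the kinase Cdk5 with its activator Cdk5r1, and the dynein regulators Pafah1b1 and Ndel1. RNA sequencing compared the medial cortex (3 libraries) with the lateral cortex (2 libraries) of mouse embryos at stage E14.5, all wild type, of mixed strain background and untreated. Nothing in the labels ties replicates to different embryos. The spread behind every p-value is therefore the one seen among libraries, which may be technical.

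In the developing cortex reelin comes mainly from Cajal-Retzius cells at the surface, whereas its receptors sit on radial glia and on migrating neurons. Binding clusters the receptors, Src-family kinases such as Fyn phosphorylate Dab1, and phosphorylated Dab1 recruits Crk and Crkl before it is degraded. Cdk5 acts beside this route, and Pafah1b1 and Ndel1 act with dynein to pull the nucleus along during migration. Loss of reelin, of both receptors or of Dab1 is known to disturb the order of cortical layers, and loss of a copy of Pafah1b1 slows neuronal migration.

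Of the 10 genes, 1 passed the test between regions: Cdk5r1, which was 1.77-fold higher in lateral cortex (95% interval 1.33 to 2.35, n = 3 and 2). Dab1, Fyn, Cdk5 and Ndel1 had lower values in all 3 medial libraries than in either lateral library but did not pass. Vldlr varied between libraries of the same region, and Lrp8, Crk, Crkl and Pafah1b1 had mean levels within 1.08-fold of each other in the 2 regions. The test was edgeR's quasi-likelihood test on read counts, with Benjamini-Hochberg adjustment over 16229 genes and a threshold of 0.05. It called 9.72% of all genes tested with 4.62% higher and 5.10% lower in medial cortex, so 1 call among 10 genes is close to the background and is no result about the genes as a group. In bulk tissue fewer cells of a type cannot be told apart from less RNA per cell.

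Gene reads came to between 27406370 and 36460274 in the medial libraries and to 66981952 and 56147129 in lateral libraries 1 and 2, which were the deeper ones. Every one of the 10 genes passed the filter on low counts, with between 643 and 30321 reads in a library. Levels are given as read counts scaled to library size (CPM) after TMM normalisation, and fold changes as log2 of medial over lateral. Levels of different genes are not compared, because CPM is not corrected for length. Medial library 1 stood apart from the other medial ones. Its reads differed from theirs with a chi-square of 50.5 and 81.1 per degree of freedom, against 24.6 between medial libraries 2 and 3 and 49.6 between the lateral libraries. This measure uses raw counts and grows with depth, so the value of the deeper lateral libraries cannot be compared with the medial ones. Emx1, a gene that defines the dorsal cortex, was present in both regions and averaged 102 CPM medially (SD 17.4, n = 3) and 79.6 CPM laterally (SD 15.9, n = 2). It did not pass (log2 fold change 0.36, adjusted p = 0.241 in edgeR). Emx1 is 1 of 6 markers of cortical identity, of which 2 were higher in medial cortex, 1 was lower and 3 did not pass. Over all genes tested 4.62% were called higher and 5.10% lower.

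Promoter sequences are shown for the members with separated groups that the RefSeq table on GRCm38.p6 holds, which are Dab1, Fyn and Ndel1. The table matched 8 of the 10 genes with 12 windows of 300 bases, from 250 bases before to 50 after a start, and Cdk5 and Cdk5r1 were not matched. Dab1 has 2 starts, at chr4:103619250-103619549 and chr4:104367288-104367587, both on the plus strand. Fyn lies at chr10:39369549-39369848 on the plus strand and Ndel1 at chr11:68853086-68853385 on the minus strand. Capitals mark E-boxes, the motif CANNTG that basic helix-loop-helix factors such as the neurogenins can bind, searched on both strands.
Dab1, first start: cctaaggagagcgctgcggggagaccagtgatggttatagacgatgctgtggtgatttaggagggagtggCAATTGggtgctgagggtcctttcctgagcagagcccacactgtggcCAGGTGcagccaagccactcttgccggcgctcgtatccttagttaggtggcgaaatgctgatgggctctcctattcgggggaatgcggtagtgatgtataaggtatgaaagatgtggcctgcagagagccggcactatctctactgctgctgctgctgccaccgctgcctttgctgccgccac
Dab1, second start: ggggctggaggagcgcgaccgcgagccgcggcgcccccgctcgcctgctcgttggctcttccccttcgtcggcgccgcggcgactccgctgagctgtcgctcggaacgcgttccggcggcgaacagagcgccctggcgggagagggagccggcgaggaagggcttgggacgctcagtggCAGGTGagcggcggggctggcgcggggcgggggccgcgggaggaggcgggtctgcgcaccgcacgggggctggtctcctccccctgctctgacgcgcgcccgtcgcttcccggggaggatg
Fyn: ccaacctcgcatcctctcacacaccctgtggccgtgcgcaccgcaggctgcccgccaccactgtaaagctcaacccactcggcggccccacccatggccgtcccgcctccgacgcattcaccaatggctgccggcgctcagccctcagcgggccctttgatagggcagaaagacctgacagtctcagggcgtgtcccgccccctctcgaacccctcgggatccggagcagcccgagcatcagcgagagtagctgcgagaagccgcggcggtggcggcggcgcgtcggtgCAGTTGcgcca
Ndel1: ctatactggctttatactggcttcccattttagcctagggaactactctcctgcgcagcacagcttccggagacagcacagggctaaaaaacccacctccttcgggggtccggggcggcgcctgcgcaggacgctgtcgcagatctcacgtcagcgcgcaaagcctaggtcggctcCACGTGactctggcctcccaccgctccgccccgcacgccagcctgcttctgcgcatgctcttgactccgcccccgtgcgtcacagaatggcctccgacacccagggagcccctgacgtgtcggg

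The windows of Dab1 held 2 and 1 E-boxes, and those of Fyn and Ndel1 held 1 each. E-boxes stood in 8 of the 12 windows of these genes and in 72.3% of 32851 promoter windows of the same length. The GC box GGGCGG, searched in the same way, stood in 5 of the 12 and in 35.7% of all windows, with 3 matches in the Ndel1 window. The T-box element AGGTGT, a motif of factors such as Tbr1, stood in 1 window, at an internal start of Lrp8, and in 13.7% of all windows. The windows of Fyn (69.0% G or C), Ndel1 (64.3%) and Dab1 (57.3% and 77.3%) were above the median of 52.7% over all windows. These matches describe letters and not binding sites.

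**Figure D1:**
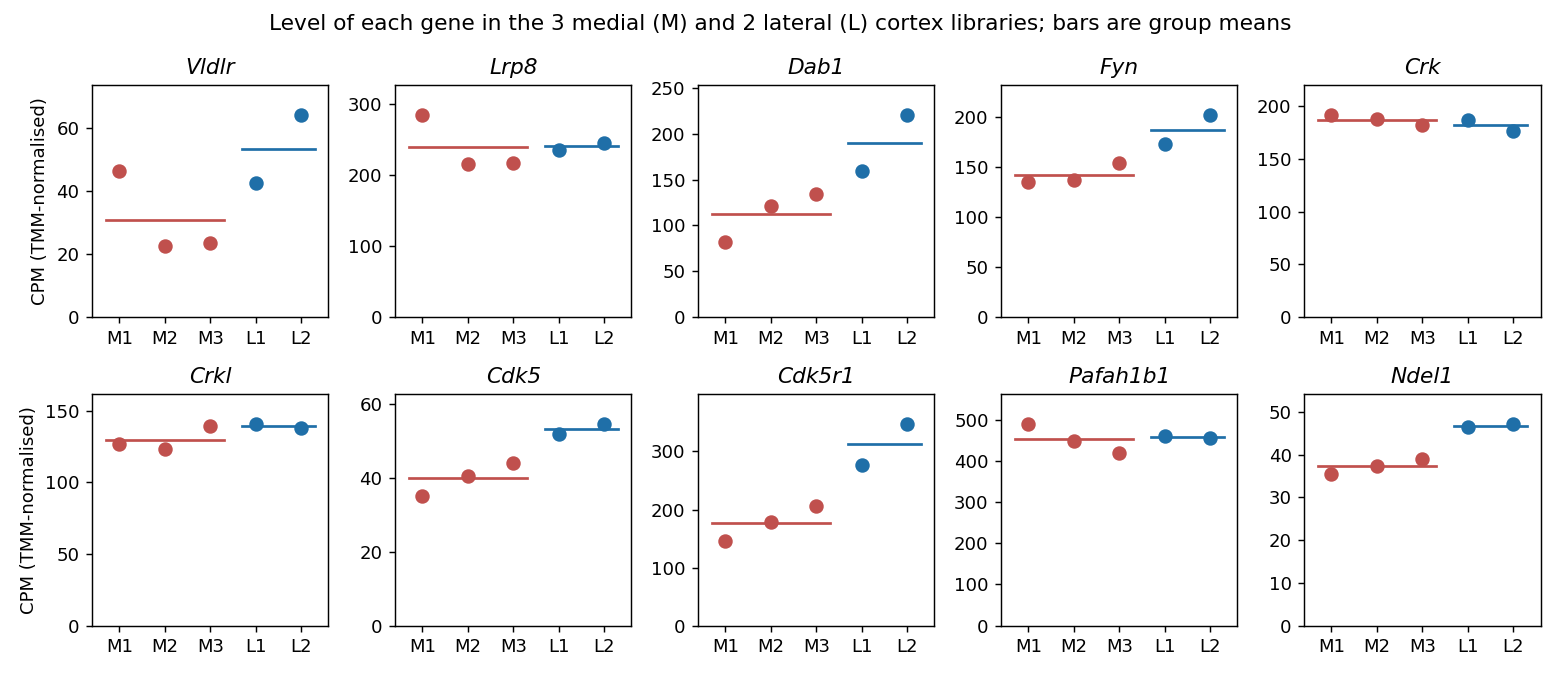
TMM-normalised CPM (vertical axis, from 0) of each of the 10 genes in medial libraries 1 to 3 (M, red) and lateral libraries 1 and 2 (L, blue), with bars at group means. In Dab1, Fyn, Cdk5, Cdk5r1 and Ndel1 the 3 medial points lie below both lateral points, whereas the groups overlap in the other 5 genes.

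The receptor genes came first. Vldlr, the very-low-density lipoprotein receptor, had 46.4, 22.5 and 23.3 CPM in medial libraries 1 to 3 and 42.5 and 63.9 CPM in lateral libraries 1 and 2. Medial library 1 was higher than lateral library 1, so the groups overlapped, and the other medial libraries were the lowest. The log2 fold change was −0.79 (SE 0.36, 95% interval −1.66 to 0.08, adjusted p = 0.186 in edgeR). Its size depended on single libraries. It was −1.21 without medial library 1 (adjusted p = 0.0250 in edgeR) and −0.47 without lateral library 2 (adjusted p = 0.639). It was −1.06 without lateral library 1, −0.61 without medial library 2 and −0.63 without medial library 3, none of which passed. The adjusted p ranged from 1.5e-05 to 0.639 over 15 alternatives.

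Lrp8, the apolipoprotein E receptor 2 and the other reelin receptor, had 284, 215 and 217 CPM in the medial libraries and 235 and 245 CPM in the lateral ones. The lateral values lay between the medial ones. Its log2 fold change was −0.01 (SE 0.14, adjusted p = 0.975 in edgeR), with a 95% interval from −0.35 to 0.33, or 1.28-fold lower to 1.26-fold higher in medial cortex. With library size alone as scaling the value was 0.07. Both receptors were highest among medial libraries in library 1.

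The ratio of Lrp8 to Vldlr reads, taken within each library, does not depend on scaling between libraries. It was 6.12, 9.57 and 9.32 in medial libraries 1 to 3 and 5.53 and 3.84 in lateral libraries 1 and 2. The groups did not overlap. The medial mean was 0.83 higher on the log2 scale (3.03 ± 0.36, SD, n = 3, against 2.20 ± 0.37, SD, n = 2), with p = 0.2 in a two-sided exact permutation test (0.267 after adjustment over 4 ratios). A design of 3 against 2 libraries cannot give a p below 0.1.

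Dab1 encodes the adaptor that binds the tails of both receptors. It had 81.7, 121 and 134 CPM in medial libraries 1 to 3 and 159 and 221 CPM in lateral libraries 1 and 2. All medial values were below both lateral ones, and medial library 1 was the lowest. The log2 fold change was −0.76 (SE 0.24, 95% interval −1.34 to −0.18), 1.69-fold higher in lateral cortex, with an adjusted p of 0.0891 in edgeR. DESeq2 called it (adjusted p = 0.0195), in a fit that called 3527 of 16229 genes, against 1577 in edgeR. Without lateral library 2 the log2 fold change was −0.50 (adjusted p = 0.450 in edgeR), and over all alternatives the adjusted p ranged from 0.000403 to 0.450.

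Fyn, the Src-family kinase that phosphorylates Dab1, had 135, 138 and 154 CPM in the medial and 173 and 202 CPM in the lateral libraries. The groups did not overlap, and the gap between medial library 3 and lateral library 1 was no wider than the spread within either region. The log2 fold change was −0.40 (SE 0.10, 95% interval −0.65 to −0.15, adjusted p = 0.0601 in edgeR). DESeq2 gave an adjusted p of 0.0155, and the range over alternatives was 0.00188 to 0.363.

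Crk and Crkl are related adaptors that bind phosphorylated Dab1 and pass the signal on to Rap GTPases. Crk had 192, 188 and 182 CPM in the medial and 187 and 177 CPM in the lateral libraries. These values overlapped, and the log2 fold change of 0.04 (SE 0.07) had a 95% interval from −0.14 to 0.22 and an adjusted p of 0.741 in edgeR. Crkl had 127, 123 and 140 CPM in the medial and 141 and 138 CPM in the lateral libraries, with a log2 fold change of −0.10 (SE 0.08, 95% interval −0.31 to 0.10, adjusted p = 0.431 in edgeR). For these 2 genes the intervals bound any difference at 1.24-fold. The Crk to Crkl read ratio was 1.51, 1.53 and 1.31 in medial and 1.33 and 1.28 in lateral libraries, which overlapped (exact permutation p = 0.3, adjusted 0.3).

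Cdk5 is a neuronal kinase of migration that needs an activator subunit, and Cdk5r1 encodes its main activator in neurons. Cdk5r1 had 146, 178 and 205 CPM in medial libraries 1 to 3 and 277 and 347 CPM in lateral libraries 1 and 2. The groups were well apart, although both spread widely. The log2 fold change was −0.83 (SE 0.17, 95% interval −1.24 to −0.42, adjusted p = 0.0409 in edgeR), 1.77-fold higher in lateral cortex. The call held without medial library 1 and was lost when any of the other 4 libraries was left out. In these fits the adjusted p was 0.0768 without lateral library 1, 0.284 without lateral library 2, 0.129 without medial library 2 and 0.0525 without medial library 3.

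Cdk5 itself had 35.1, 40.5 and 44.1 CPM in the medial and 51.9 and 54.5 CPM in the lateral libraries. All medial values were the lower ones. Its log2 fold change was −0.41 (SE 0.11, 95% interval −0.69 to −0.13, adjusted p = 0.0683 in edgeR), and DESeq2 gave an adjusted p of 0.0237. The Cdk5r1 to Cdk5 read ratio was 4.14, 4.39 and 4.65 in medial and 5.35 and 6.37 in lateral libraries. It was lower in every medial library, by 0.41 on average on the log2 scale, with p = 0.1 in the exact permutation test, the smallest the design allows (adjusted 0.267).

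Pafah1b1, the lissencephaly gene, encodes a regulator of the motor dynein, and Ndel1 encodes a dynein-binding partner that Cdk5 phosphorylates. Pafah1b1 had 489, 449 and 419 CPM in the medial and 461 and 455 CPM in the lateral libraries. The lateral values fell inside the medial range, and the log2 fold change was −0.02 (SE 0.09, 95% interval −0.25 to 0.21, adjusted p = 0.919 in edgeR). Reads of its processed pseudogenes, Pafah1b1-ps1 and Pafah1b1-ps2 in GENCODE M21, have no row of their own in the count files, so whether some were counted as Pafah1b1 is uncertain.

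Ndel1 had 35.5, 37.3 and 39.0 CPM in the medial and 46.4 and 47.2 CPM in the lateral libraries. Its values were tight within each region and did not overlap. The log2 fold change was −0.33 (SE 0.08, 95% interval −0.53 to −0.12, adjusted p = 0.0579 in edgeR), 1.26-fold higher in lateral cortex, and DESeq2 gave an adjusted p of 0.0123. The Ndel1 to Pafah1b1 read ratio was 0.0725, 0.0831 and 0.0932 in medial and 0.101 and 0.104 in lateral libraries. All medial ratios were lower, by 0.31 on average on the log2 scale (exact permutation p = 0.2, adjusted 0.267).

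**Figure D2:**
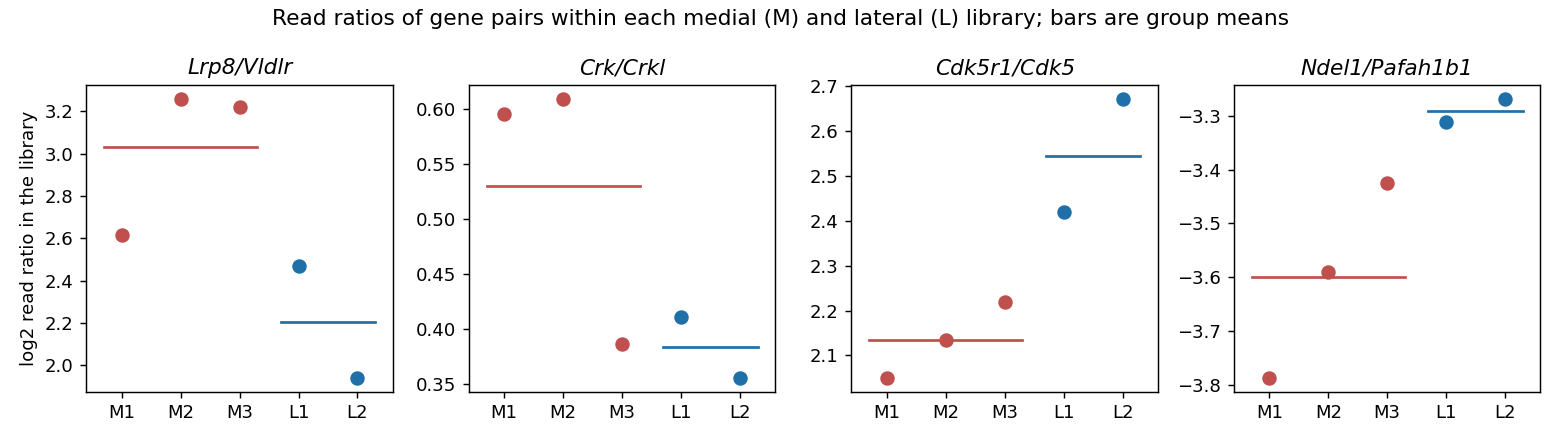
Read ratios of 4 gene pairs within each library on the log2 scale (vertical axes differ and do not start at 0), for medial (M, red) and lateral (L, blue) libraries with bars at group means. Lrp8/Vldlr is higher, and Cdk5r1/Cdk5 and Ndel1/Pafah1b1 are lower, in all 3 medial libraries, whereas Crk/Crkl overlaps.

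Across the 10 genes, 9 had a negative log2 fold change, as did 7868 of 16229 genes tested. The median was −0.36, against 0.01 over all genes tested. With library size alone, upper-quartile scaling, a block by replicate number or medial library 3 left out, 7 of 10 were negative. Lrp8 and Pafah1b1, both close to 0, changed sign there. In 5 of the 10 the groups did not overlap and medial was lower, which was the case in 26.7% of all genes tested. At an unadjusted p under 0.05 there were 5 genes, Dab1, Fyn, Cdk5, Cdk5r1 and Ndel1, all lower in medial cortex. Of all genes tested, 32.2% had such a p, and 16.3% had it with a lower value in medial cortex.

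**Figure D3:**
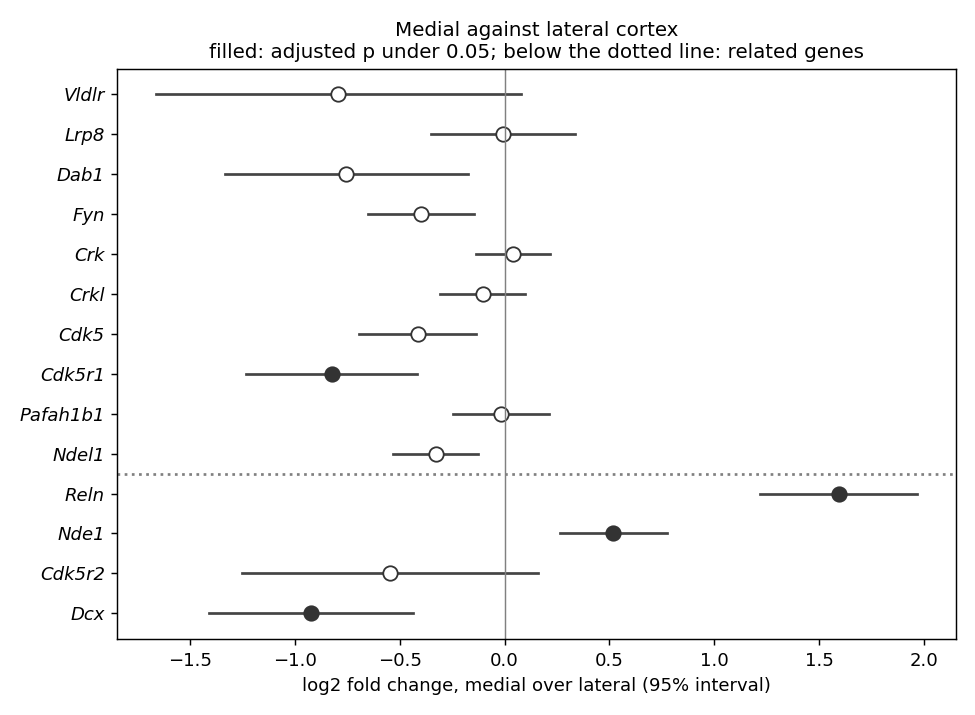
Log2 fold change of medial over lateral cortex (horizontal axis) with 95% intervals for the 10 genes and, below the dotted line, 4 related genes. Filled points passed an adjusted p of 0.05: Cdk5r1 among the 10, and Reln, Nde1 and Dcx among the related genes. The intervals of Vldlr, Lrp8, Crk, Crkl and Pafah1b1 include 0.

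The same 5 genes also shared an order of libraries. In Dab1, Fyn, Cdk5, Cdk5r1 and Ndel1 the level was lowest in medial library 1, then came medial libraries 2 and 3 and lateral library 1, and lateral library 2 was highest. This order held in 1572 of 16229 genes tested (9.69%) and was noticed after the values were seen. It requires medial values below both lateral ones, which these 5 genes already had. That condition alone held in 4340 genes tested (26.7%), so the 9.69% is not a like background for these 5. The order also held in 7 of 11 markers of neurons, of which 9 already had medial values below both lateral ones. The opposite order held in 5 of 9 markers of radial glia, of which 7 already had medial values above both lateral ones. Over all genes tested the opposite order held in 1430 (8.81%), and medial values above both lateral ones in 4304. The shares over all genes are therefore not a like background for these markers either.

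Summed markers of neurons stood in the order of the 5 genes too, at 1313, 1744 and 1977 CPM in medial libraries 1 to 3 and 2608 and 3290 CPM in lateral libraries 1 and 2. Of the 11 neuronal markers tested, 6 were lower in medial cortex, among them Dcx, and 1, Nefl, was higher, which is named because of its value. Over all genes tested 5.10% were called lower and 4.62% higher. Tubb3, a tubulin of neurons, averaged 694 CPM medially (SD 166, n = 3) and 1174 CPM laterally (SD 168, n = 2) without passing (log2 fold change −0.76, adjusted p = 0.0726 in edgeR). Summed markers of radial glia, the dividing progenitors, ran the other way, from 3258 to 3989 CPM in medial and from 2159 to 2561 CPM in lateral libraries, with 3 of 9 higher in medial cortex, Nes, Hes1 and Notch1, named after their values were seen. Pax6 (0.31, adjusted p = 0.132) and Sox2 (0.64, adjusted p = 0.111 in edgeR) did not pass. The part of these markers in the differences of the 10 genes was not tested.

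**Figure D4:**
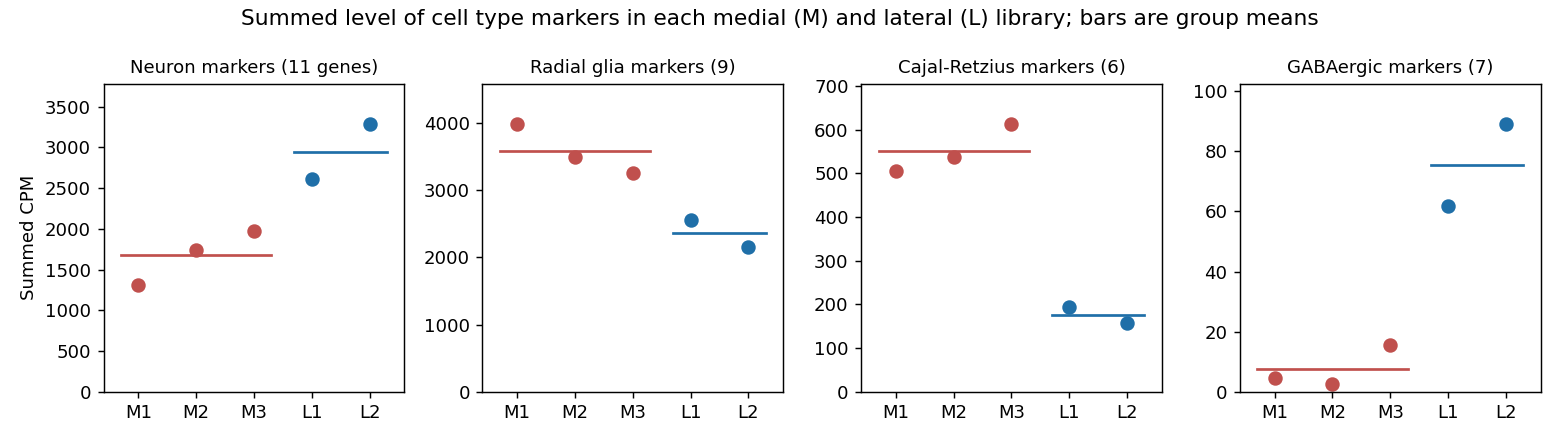
Summed CPM (vertical axis, from 0) of markers of neurons, radial glia, Cajal-Retzius cells and GABAergic neurons in each medial (M, red) and lateral (L, blue) library, with bars at group means. Neuron markers are lowest in medial library 1 and highest in lateral library 2, and radial glia markers show the reverse order. Reln makes up most of the Cajal-Retzius sum.

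Markers of other cell types were read in the same way, beside the same shares of 4.62% higher and 5.10% lower over all genes tested. All 6 Cajal-Retzius markers were higher in medial cortex, with sums from 506 to 614 CPM against 157 to 195 CPM, and Trp73 averaged 18.0 CPM medially (SD 2.83, n = 3) and 3.16 CPM laterally (SD 0.655, n = 2). Reln is 1 of these 6 markers and made up most of each sum, with 435 to 556 CPM in medial and 145 to 181 CPM in lateral libraries. These sums and the Reln values given below are therefore not separate results. Of 7 markers of GABAergic neurons, 5 were lower in medial cortex, with sums from 2.52 to 15.6 CPM against 61.9 to 89.2 CPM. These 5 were Gad1, Gad2, Dlx1, Dlx2 and Dlx5, of which all but Gad1 were named after their values were seen. None of 4 markers of intermediate progenitors passed, with 3 positive log2 fold changes and 1 negative one, a median of 0.16 and overlapping sums (599 to 753 CPM in medial and 585 to 722 CPM in lateral libraries). The negative one was Eomes, the factor that defines these cells (−0.11, adjusted p = 0.595 in edgeR), and 1 of the 4, Btg2, had an unadjusted p under 0.05. Of 5 endothelial markers 1 was lower in medial cortex, with sums from 72.6 to 84.8 CPM in medial and from 95.3 to 109 CPM in lateral libraries. Of 6 erythroid markers 1 was lower, with sums from 471 to 674 and from 676 to 738 CPM. None of 5 microglial markers passed (sums from 21.3 to 41.5 and from 16.5 to 22.1 CPM) and none of 3 choroid plexus markers tested (from 2.98 to 11.3 and from 2.34 to 11.8 CPM). In both of these lists the sums overlapped, and at an unadjusted p under 0.05 there were 0 microglial genes and 1 choroid plexus gene, Folr1. The markers of neurons, radial glia, Cajal-Retzius cells and GABAergic neurons had 0 calls without lateral library 1, lateral library 2 or medial library 2. Without medial library 3 the calls were 2 of 11, 0 of 9, 6 of 6 and 5 of 7, in a fit that called 490 genes of all.

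Of 22 other genes of the reelin route, which encode the ligand, kinases, Rap and PI3 kinase components, integrins, the Dab1-degrading ligase and actin regulators, 1 was higher, 1 was lower and 20 did not pass, with a median log2 fold change of −0.08. This share of calls is close to the 9.72% over all genes tested. Reln, the ligand, had 435, 483 and 556 CPM in medial libraries 1 to 3 and 181 and 145 CPM in lateral libraries 1 and 2. Its log2 fold change was 1.59 (SE 0.15, adjusted p = 0.0253 in edgeR), opposite in sign to that of Dab1. Reads of Reln divided by those of Dab1 came to 5.32, 3.98 and 4.14 in the medial and 1.14 and 0.656 in the lateral libraries, a ratio chosen after its values were seen. Dab2ip, a Ras-GTPase activator that binds Disabled proteins, was lower in medial cortex (log2 fold change −0.64, SE 0.10, adjusted p = 0.0316 in edgeR). It passed in 10 of 15 alternatives, and its adjusted p was 0.0578 in edgeR with a block by replicate number.

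Among 20 other genes around Pafah1b1, Cdk5 and dynein, 4 were lower in medial cortex, 1 was higher and 15 did not pass, with a median log2 fold change of −0.31. Of all genes tested, 5.10% were called lower and 4.62% higher in medial cortex. The lower ones were Dcx, a microtubule-binding protein of migrating neurons (−0.92, SE 0.20, adjusted p = 0.0450), the dynein subunits Dync1i2 (−0.50, adjusted p = 0.0405) and Dync1li1 (−0.41, adjusted p = 0.0354), and the focal adhesion kinase Ptk2 (−0.42, adjusted p = 0.0467 in edgeR). Ptk2 passed in 7 of 15 alternatives, and its adjusted p was 0.0528 with upper-quartile scaling, 0.0682 with library size alone and 0.0527 without the filter on low counts. Dcx passed in 11 of 15, and Dync1i2 and Dync1li1 in 10 each. With a block by replicate number Dync1i2 and Dync1li1 had an adjusted p of 0.0514 and 0.0661 in edgeR. The gene that was higher was Nde1, the close relative of Ndel1 that acts mainly in dividing progenitors, with 143, 140 and 143 CPM in medial and 109 and 88.8 CPM in lateral libraries (log2 fold change 0.52, SE 0.10, adjusted p = 0.0405 in edgeR). Nde1 passed in 9 of 15 alternatives. Its adjusted p in edgeR was 0.0673 without the filter on low counts and 0.0716 with a block by replicate number. Reads of Nde1 divided by those of Ndel1 came to 4.03, 3.76 and 3.66 in medial and 2.36 and 1.88 in lateral libraries, a ratio also chosen after its values were seen. Cdk5r2, the other activator of Cdk5, averaged 1.33 CPM medially (SD 0.258, n = 3) and 1.98 CPM laterally (SD 0.539, n = 2) and did not pass (−0.55, adjusted p = 0.245 in edgeR).

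Of 12 other genes of the lipoprotein receptor family, 3 were higher in medial cortex, 1 was lower and 8 did not pass, with a median of −0.06. The shares over all genes tested were 4.62% higher and 5.10% lower. The higher ones were Lrp4, a receptor of nerve-muscle synapses and Wnt antagonists (0.63, SE 0.08, adjusted p = 0.0296), Lrp1b (1.17, adjusted p = 0.0335) and the endocytic receptor Lrp2 (4.23, adjusted p = 0.0484 in edgeR), and the lower one was Lrp11 (−0.60, adjusted p = 0.0411). Lrp2 had a log2 fold change of 3.13 without medial library 1, and its adjusted p was 0.0733 with limma-voom and 0.0532 after thinning. Leaving out lateral library 1, lateral library 2 or medial library 2 left 0 calls in any of these 3 lists in edgeR, in fits that called 18, 0 and 0 genes of all and had 4050, 2456 and 4035 at an unadjusted p under 0.05. Without medial library 1 the calls were 1 higher and 2 lower in the reelin list, 1 and 5 in the dynein list and 3 and 2 in the receptor family. That fit called 2164 genes of all. Without medial library 3 the calls in the 3 lists were 1 and 0, 0 and 0, and 2 and 0. The calls of Dab2ip, Nde1, Dcx, Dync1i2, Dync1li1, Ptk2, Lrp2 and Lrp11 were lost there. Calls over all genes also fell in that fit, from 1577 to 490.

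Names of the deposited files carry a tag that medial library 2 shares with lateral library 1 and medial library 3 with lateral library 2; the labels do not explain it. Within these pairs the log2 difference of medial minus lateral was −0.92 and −1.46 for Vldlr, −0.39 and −0.72 for Dab1, −0.33 and −0.39 for Fyn, −0.36 and −0.31 for Cdk5, −0.64 and −0.76 for Cdk5r1, and −0.32 and −0.27 for Ndel1. For the remaining genes it was −0.13 and −0.18 (Lrp8), 0.00 and 0.04 (Crk), −0.19 and 0.01 (Crkl), and −0.04 and −0.12 (Pafah1b1). With the tag as a block, a fit in which medial library 1 has no partner, 6 of the 10 genes passed, the 6 named first. This fit called 5361 of the 16229 genes tested, against 1577 in the reported one. It left fewer residual degrees of freedom than the 3 of the reported fit.

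**Figure D5:**
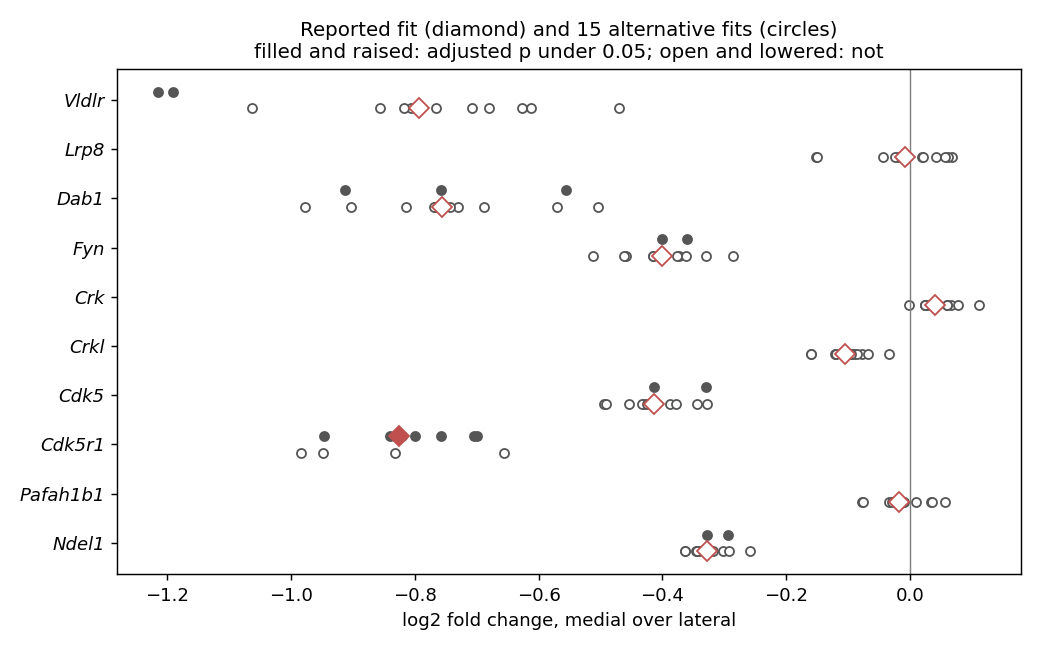
Log2 fold change of medial over lateral cortex (horizontal axis) for each gene in the reported fit (diamond) and in 15 alternative fits (circles); filled and raised symbols had an adjusted p under 0.05. Values of Vldlr and Dab1 spread most, and those of Lrp8, Crk and Pafah1b1 lie on both sides of 0.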

How the data were processed

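RNA was extracted with a column kit and sequenced as polyadenylated, unstranded libraries, per the labels' protocols. The authors deposited 1 file per library with raw counts of reads per gene symbol. The submitters' processing notes name mm9, BWA, STAR and HTSeq without roles or versions. Unassigned reads (23.1% to 28.7% of a file, in 5 classes) stayed out of library sizes and tests. No exon of another gene in GENCODE M21 (GRCm38) overlapped an exon of the 10 genes. Exons of other genes within their introns were not looked for.

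Groups came from the sample titles. Counts were filtered with filterByExpr (count 10, total 15), scaled by TMM and tested with edgeR 4.0.16 (R 4.3.3, glmQLFit with legacy=FALSE, group as the only term, 3 residual degrees of freedom). The SE is the log2 fold change over the root of F. Intervals are at 95%, from the t distribution on the total degrees of freedom of the fit, which exceed the residual 3. Ratios were tested over all 10 assignments of libraries. A floor of 3 reads is 0.0448 to 0.109 CPM and covers counting error only. Alternatives used DESeq2 1.42.0, limma 3.58.1, other scalings and filters, thinning, blocks and left-out libraries.

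The 10 genes and the lists were chosen with earlier results of these data known. Named genes were all 10, up to 8 called genes per pathway list, Reln, Nde1, Cdk5r2 and Dcx, and defining markers (Tubb3, Dcx, Pax6, Sox2, Eomes, Trp73, Gad1 and Emx1; another is not reported here). Outside this rule, Nefl, Nes, Hes1, Notch1, Gad2, Dlx1, Dlx2, Dlx5, Btg2 and Folr1 were named after their values were seen. Of the 12 neuronal markers listed, 11 matched a symbol in the files.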

Additional observations from a re-analysis of the deposited data

How the results depend on the processing

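The 10 genes had at least 643 reads in every library, and 3 against 2 libraries left 3 residual degrees of freedom. The reported fit called 1577 of 16229 genes tested. Over the same genes the count became 3527 with DESeq2 and 5361 with a block by the tag in the deposited names. It ranged from 0 to 2164 when 1 medial library was left out. It was 0 without medial library 2 or lateral library 2, where 4035 and 2456 genes had an unadjusted p under 0.05. Of the 10 genes, 1 passed in the reported fit, 5 with DESeq2 (Dab1, Fyn, Cdk5, Cdk5r1 and Ndel1), 6 with the block by tag and between 0 and 2 when 1 library was left out (2 without medial library 1, and 0 when any other library was left out).

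A block by replicate number called 2 of the 10 genes, Cdk5r1 and Dab1 (Dab1 with an adjusted p of 0.0354 in edgeR), and 1076 genes of all tested. Like the block by tag, it left fewer residual degrees of freedom than the 3 of the reported fit. The numbers are not known to pair libraries: deviations from the group means correlated at 0.03 for the libraries numbered 1 and at −0.38 for those numbered 2, and at 0.38 in both pairs that share a tag. With 2 lateral libraries these deviations mirror each other.

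Among single genes, Lrp8 (−0.01 in the reported fit) reversed to 0.0183 with upper-quartile scaling, 0.0677 with library size alone and 0.0422 with the replicate block, and it ranged from −0.151 to 0.0610 when 1 library was left out. Pafah1b1 reversed to 0.00877, 0.0563 and 0.0335 in the same 3 fits and ranged from −0.0766 to 0.0352 over left-out libraries, and Crk ranged from −0.00209 to 0.0763 there. The other 7 genes kept their sign in all 15 alternatives. The 4 read ratios kept their sign, with ranges over left-out libraries of 0.56 to 1.09 for Lrp8/Vldlr, 0.11 to 0.22 for Crk/Crkl, −0.54 to −0.28 for Cdk5r1/Cdk5 and −0.40 to −0.22 for Ndel1/Pafah1b1.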
